A study of Arabidopsis thaliana with 12 samples.

Results

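WRKY transcription factors form one of the large regulator families of plants, and the Arabidopsis genes of this family that carry a WRKY symbol followed by a number were followed across shoots and roots of wild-type and CCA1-ox seedlings. Of 33010 genes in the expression table, 67 carry such a symbol, and 54 of them reached 1 FPKM (fragments divided by gene length and by a library size, the unit of the deposited table) in at least 3 libraries. That share, 80.6%, compares with 63.5% of all genes. RNA was sequenced from whole shoots and whole roots of 8-day-old Arabidopsis thaliana seedlings kept in constant white fluorescent light of 15 µE at 22 °C. The wild type (WT) was the accession Col-0, and CCA1-ox plants overexpress CCA1, a MYB-related transcription factor of the circadian clock that normally peaks around dawn. The 4 groups (WT shoots, CCA1-ox shoots, WT roots and CCA1-ox roots) held 3 libraries each. The labels give neither the promoter that drives CCA1, nor the number of independent lines, nor the hour of harvest, nor separate cultures, so the p-values speak only to the spread among these libraries, part or all of which could be technical.

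WRKY proteins bind DNA through a domain named after the residues at its start, followed by a zinc finger. Their usual target is the W box, a short element with the core TTGAC that is common in promoters of defence genes and of WRKY genes themselves. The family is best known from innate immunity, where MAP kinase cascades and salicylic acid act through it, and individual members act in leaf senescence, phosphate nutrition, heat and drought responses, and trichome, seed coat, root and stem development. Classically, group I proteins hold a pair of WRKY domains, group II proteins a single domain with a C2H2 zinc finger, and group III proteins a single domain with a C2HC finger. Translation of the RefSeq coding sequences placed 10 of the 67 genes in group I, 44 in group II and 12 in group III. WRKY19, which joins a WRKY domain to parts of a resistance protein, was left without a group because no finger was found. Of those that passed the expression filter, 9 were of group I, 40 of group II and 4 of group III.

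The overexpressed gene matched the labels. CCA1 stood at 44.9, 45.2 and 44.8 FPKM in the WT shoots and 214, 216 and 212 FPKM in the CCA1-ox shoots. In roots it stood at 17.2, 16.2 and 17.9 FPKM in the WT roots and 172, 172 and 179.6 FPKM in the CCA1-ox roots, so that all CCA1-ox libraries lay above all WT libraries of the same organ. Libraries held 27142671 to 45051329 fragments, summed over genes. Differences were tested with limma on log2(FPKM + 1) over all 20975 genes that passed the filter, with Benjamini-Hochberg adjustment over all of them, and a gene was called at an adjusted p under 0.05. Differences below are on that log2 scale, where the change of a gene with a low level comes out too small, and SE is the standard error of the difference. Root hair and root cap markers were close to 0 in shoots, with 4 of 5 and 2 of 3 of these genes at 0 in every WT shoot library, and green-tissue markers summed to 35065 to 35096 FPKM in WT shoots against 17.8 to 20.1 FPKM in WT roots, so the organ labels held. In whole organs, fewer cells of a type and less RNA per cell cannot be told apart. The strand setting of the counting is not given in the sources used here, and 10 of the 54 genes overlap a gene on the other strand (WRKY2, WRKY4, WRKY9, WRKY19, WRKY29, WRKY33, WRKY40, WRKY53, WRKY61 and WRKY69), so their values could include fragments of the neighbour. WRKY19, WRKY40 and WRKY69 also share runs of 50 bases with another coding sequence, and their values are less certain for that reason.

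**Figure D1:**
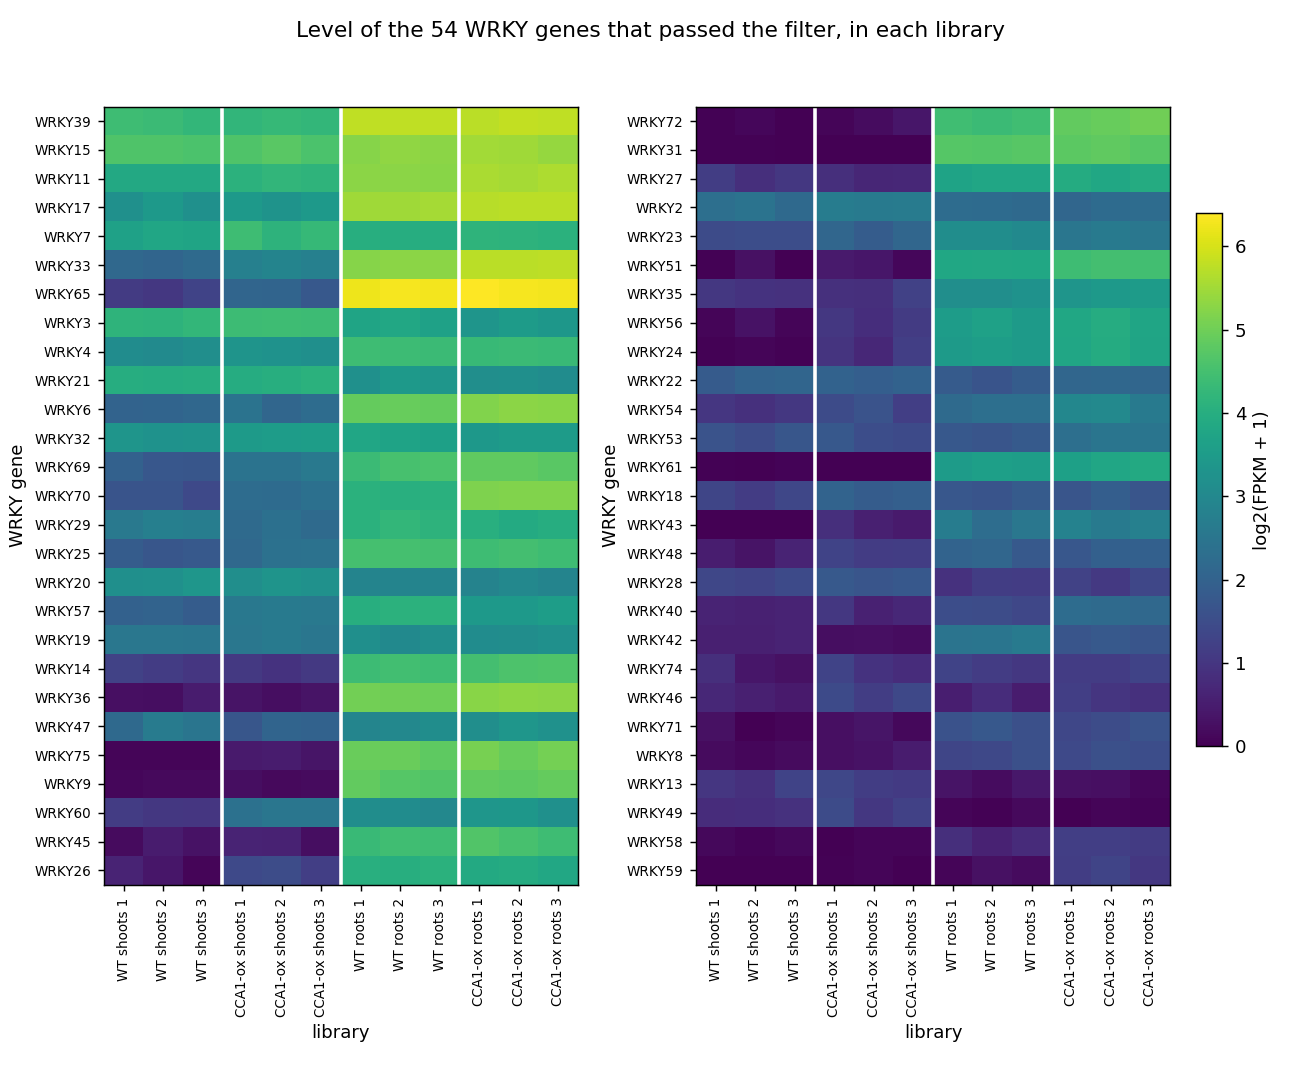
Level of each of the 54 WRKY genes that passed the filter in each of the 12 libraries, as log2(FPKM + 1) on the colour scale, ordered from the highest mean (top left) to the lowest (bottom right). The root libraries are brighter than the shoot libraries for most genes, and the summed level of all 67 genes ran from 191.7 FPKM in a WT shoot library to 922 FPKM in a CCA1-ox root library.

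The family was far more abundant in roots. Summed over the 67 genes, the level was 191.7 to 193 FPKM in the WT shoot libraries, 233 to 236 FPKM in the CCA1-ox shoot libraries, 798 to 811 FPKM in the WT root libraries and 911 to 922 FPKM in the CCA1-ox root libraries. These ranges do not overlap. The 5 most abundant members over all libraries were WRKY65, WRKY39, WRKY15, WRKY17 and WRKY11, of which the last 4 belong to the calmodulin-binding subgroup IId. WRKY15 (AT2G23320), a regulator of growth under oxidative stress, was the top member of WT shoots at 23.96, 23.8 and 22.9 FPKM, and stood at 23.7, 26.1 and 23.2 FPKM in CCA1-ox shoots. It was higher in roots, at 36.97, 39.3 and 37.9 FPKM in the WT roots and 44.8, 44.02 and 40.7 FPKM in the CCA1-ox roots. WRKY39 (AT3G04670), known from the heat response, stood at 20.1, 19.5 and 17.9 FPKM in the WT shoots and 17.5, 18.5 and 17.9 FPKM in the CCA1-ox shoots, and at 54.3, 54.5 and 53.7 FPKM in the WT roots and 51.9, 54.8 and 53.8 FPKM in the CCA1-ox roots. Its genotype groups overlapped in both organs. WRKY11 and WRKY17 are closely related negative regulators of basal resistance. WRKY11 (AT4G31550) stood at 13.6, 13.4 and 13.5 FPKM in the WT shoots and 16.4, 17.6 and 16.8 FPKM in the CCA1-ox shoots, and at 37.9, 37.97 and 37.5 FPKM in the WT roots and 46.6, 45.2 and 47.5 FPKM in the CCA1-ox roots, with no overlap between genotypes in either organ. WRKY17 (AT2G24570) stood at 8.24, 9.85 and 8.21 FPKM in the WT shoots and 9.91, 8.83 and 9.997 FPKM in the CCA1-ox shoots, where the genotypes overlapped, and at 43.5, 43.7 and 45.6 FPKM in the WT roots and 51.8, 52.7 and 52.4 FPKM in the CCA1-ox roots, where they did not. On the FPKM scale the order of mean levels in WT shoots was WRKY15, WRKY39, WRKY3 and WRKY21, and in WT roots WRKY65, WRKY39, WRKY17 and WRKY15.

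Comparing WT roots with WT shoots asks where each member is normally expressed. Of the 54 tested members, 44 were higher in roots and 7 lower, against a background of 45.3% of all tested genes called higher and 41.8% called lower. The median log2 difference was 1.50 for the members and 0.035 for all tested genes, and 34 members were called at least 2-fold higher. This count is in part set by the filter, since 20 members reached 1 FPKM in every library of a root group but of no shoot group, and only 3 did so in shoots alone. The deposited scaling also moves it: rescaling to the summed fragments shifts the median of all genes by 0.30, takes the share of higher among all called genes from 52% to 65.6%, and leaves 46 members higher and 3 lower.

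WRKY65 (AT1G29280), a group II gene, had the largest difference on the log2(FPKM + 1) scale. It stood at 1.16, 1.07 and 1.44 FPKM in the WT shoots and 74.7, 77.8 and 76.4 FPKM in the WT roots. Every root library was far above every shoot library (log2 difference 5.12 ± 0.081 SE, adjusted p = 3.25e-16). WRKY75 (AT5G13080, chromosome 5, 4149738 to 4151201), which acts in phosphate starvation and root hair development, was close to 0 in WT shoots and high in roots, at 0.0687, 0.0660 and 0.0615 FPKM in the WT shoots and 29.5, 29.9 and 27.1 FPKM in the WT roots. The log2 difference was 4.80 ± 0.063 SE. WRKY75 and the next genes, WRKY31, WRKY36, WRKY9 and WRKY72, reached 1 FPKM in root libraries only. The filter thus required their high root values, and their organ differences are descriptions. WRKY31 (AT4G22070) stood at 0.0255, 0.0245 and 0.0114 FPKM in the WT shoots and 25.1, 24.7 and 25.4 FPKM in the WT roots. WRKY36 (AT1G69810), known to repress the light regulator HY5, stood at 0.201, 0.179 and 0.398 FPKM in the WT shoots and 31.7, 30.998 and 30.5 FPKM in the WT roots. WRKY9 (AT1G68150) stood at 0.0842, 0.121 and 0.113 FPKM in the WT shoots and 28.02, 25.2 and 24.4 FPKM in the WT roots. No WT shoot library exceeded 0.5 FPKM for any of these 3 genes, with log2 differences of 4.68 ± 0.048, 4.67 ± 0.064 and 4.60 ± 0.058 SE. WRKY72 (AT5G15130), which contributes to defence against root-knot nematodes, completed the 6 members with the largest log2 differences. It stood at 0.0274, 0.0790 and 0.0123 FPKM in the WT shoots and 20.7, 19.5 and 20.8 FPKM in the WT roots (log2 difference 4.36 ± 0.072 SE).

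A small set went the other way. WRKY13 (AT4G39410), a regulator of stem lignification, stood at 1.01, 0.851 and 1.46 FPKM in the WT shoots and 0.256, 0.157 and 0.323 FPKM in the WT roots. WRKY49 (AT5G43290) stood at 0.755, 0.772 and 0.873 FPKM in the WT shoots and 0.0604, 0.0338 and 0.122 FPKM in the WT roots. Both were below 0.5 FPKM in all WT root libraries, with log2 differences of -0.75 ± 0.11 and -0.75 ± 0.094 SE. These values are descriptions, because both genes reached 1 FPKM in shoot libraries only. WRKY21 (AT2G30590), a calmodulin-binding member, stood at 14.7, 14.6 and 14.9 FPKM in the WT shoots and 8.32, 9.82 and 9.25 FPKM in the WT roots. WRKY3 (AT2G03340), which acts with WRKY4 against necrotrophic fungi, stood at 16.9, 16.7 and 17.7 FPKM in the WT shoots and 12.3, 13.3 and 11.6 FPKM in the WT roots. WRKY20 (AT4G26640) stood at 8.08, 8.30 and 9.35 FPKM in the WT shoots and 6.35, 6.46 and 6.42 FPKM in the WT roots. For these 3 more abundant genes the organs did not overlap but differed by less than 2-fold, with log2 differences of -0.64 ± 0.054 (adjusted p = 6.03e-08), -0.43 ± 0.054 (adjusted p = 4.24e-06) and -0.37 ± 0.060 (adjusted p = 6.04e-05). WRKY28 (AT4G18170), an activator of the salicylic acid synthesis gene ICS1, stood at 1.55, 1.47 and 1.70 FPKM in the WT shoots and 0.886, 1.25 and 1.22 FPKM in the WT roots, and its log2 difference was -0.29 ± 0.090 SE, adjusted p = 0.00946. Under scaling to the summed fragments, WRKY3, WRKY20 and WRKY28 lost their calls, and WRKY28 did so without WT root replicate 1 as well.

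**Figure D2:**
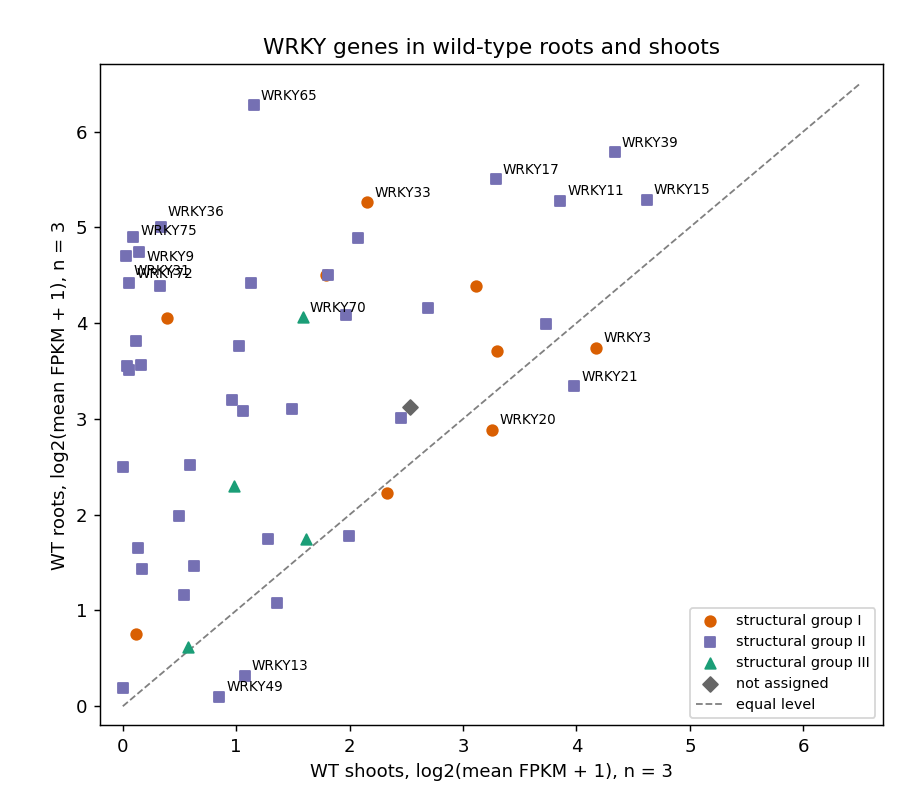
Mean level of each tested WRKY gene in WT shoots (horizontal axis) and WT roots (vertical axis), both as log2(mean FPKM + 1) over 3 libraries, with the structural group given by the marker and the line of equal level dashed. Most points lie above the line, WRKY65 is the highest at 76.3 FPKM in roots, and WRKY13, WRKY49, WRKY21, WRKY3 and WRKY20 lie below it.

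In shoots, CCA1 overexpression went with more WRKY transcript. Of 54 members tested, 27 rose and 4 fell in CCA1-ox shoots, whereas 26.6% of all tested genes rose and 28.9% fell. The members' median log2 difference was 0.19, against -0.0083 for all tested genes. Most differences were modest, and WRKY60 alone among called members reached 2-fold on the log2(FPKM + 1) scale. Among all called genes 48% were higher, and 66% were under scaling to the summed fragments, which left 30 members higher and 4 lower. Quantile normalization went the other way, with 41.7% of all called genes higher. Under it the rises of WRKY4, WRKY6, WRKY28, WRKY49, WRKY54 and WRKY74 lost their calls, and WRKY14, WRKY36 and WRKY58 were called lower. By structure, 7 of 9 group I members rose and none fell, 17 of 40 in group II rose and 4 fell, and 3 of 4 in group III rose and none fell. WRKY46 and WRKY49, which are among the 27, and WRKY13, which was not called, passed the filter through the CCA1-ox shoots alone.

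WRKY60 (AT2G25000, chromosome 2, 10629662 to 10631413 on TAIR10), WRKY18 and WRKY40 form group IIa, whose proteins interact with one another and repress basal defence and abscisic acid responses. WRKY60 stood at 1.196, 1.05 and 1.02 FPKM in the WT shoots and 4.26, 4.74 and 4.69 FPKM in the CCA1-ox shoots. Every CCA1-ox library was well above every WT library, 4.19-fold by the means (log2 difference 1.41 ± 0.065 SE, adjusted p = 6.64e-10). WRKY18 (AT4G31800) stood at 1.51, 1.1995 and 1.59 FPKM in the WT shoots and 3.10, 2.66 and 2.80 FPKM in the CCA1-ox shoots, also without overlap and 1.99-fold higher (log2 difference 0.67 ± 0.086 SE, adjusted p = 2e-05). WRKY40 (AT1G80840) stood at 0.567, 0.504 and 0.564 FPKM in the WT shoots and 1.06, 0.511 and 0.639 FPKM in the CCA1-ox shoots. Its groups overlapped, and its log2 difference of 0.16 ± 0.10 SE was not called (adjusted p = 0.2).

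WRKY26, WRKY25 and WRKY33 are group I proteins that act together in heat tolerance. WRKY26 (AT5G07100) stood at 0.565, 0.305 and 0.0632 FPKM in the WT shoots and 1.64, 1.82 and 1.29 FPKM in the CCA1-ox shoots. All WT libraries were under 1 FPKM and all CCA1-ox libraries above it (log2 difference 0.99 ± 0.11 SE, adjusted p = 6.83e-06). WRKY25 (AT2G30250) rose from 2.47 ± 0.182 to 3.99 ± 0.434 FPKM (SD, n = 3 each; log2 difference 0.52 ± 0.062 SE, adjusted p = 8.84e-06). WRKY33 (AT2G38470, chromosome 2, 16108235 to 16110766), the MAP kinase substrate that drives synthesis of the phytoalexin camalexin, stood at 3.48, 3.23 and 3.65 FPKM in the WT shoots and 5.88, 6.43 and 5.89 FPKM in the CCA1-ox shoots, a 1.76-fold rise without overlap (log2 difference 0.67 ± 0.044 SE, adjusted p = 2.59e-08).

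Several members close to 0 in WT shoots were measured above 0 in CCA1-ox shoots. WRKY24 (AT5G41570) stood at 0.0312, 0.0600 and 0.0280 FPKM in the WT shoots and 0.958, 0.638 and 1.27 FPKM in the CCA1-ox shoots, which rests on 1, 2 and 1 fragments against 31, 21 and 44. WRKY56 (AT1G64000), another group II gene, stood at 0.0627, 0.241 and 0.0561 FPKM in the WT shoots and 1.05, 0.792 and 1.16 FPKM in the CCA1-ox shoots. Both went from near 0 to about the filter level, with log2 differences of 0.90 ± 0.10 (adjusted p = 3.38e-06) and 0.84 ± 0.089 (adjusted p = 2.93e-06). WRKY65 stood at 1.16, 1.07 and 1.44 FPKM in the WT shoots and 3.27, 3.17 and 2.39 FPKM in the CCA1-ox shoots, 2.41-fold higher and below every root library (log2 difference 0.82 ± 0.081 SE, adjusted p = 1.34e-06). WRKY43 (AT2G46130), the smallest member by coding sequence, was listed at 0 in every WT shoot library and at 0.833, 0.474 and 0.368 FPKM in the CCA1-ox shoots, from 19, 11 and 9 fragments. It was called (adjusted p = 0.000388), and no fold is given against a group at 0. Markers of inner root and vascular tissue moved with these genes: the summed level of 6 endodermis genes went from 10.7 to 12.7 FPKM in WT shoots to 21.7 to 27.4 FPKM in CCA1-ox shoots, with 6 of 6 called higher, and that of 5 xylem genes from 61.6 to 64.3 FPKM to 108 to 109 FPKM, with 5 of 5 called higher. Root hair markers summed to 0.022 to 0.0945 FPKM and 0.101 to 0.243 FPKM in these groups and root cap markers to at most 0.0933 FPKM, with none of these 8 genes called. Green-tissue markers summed to 26461 to 26898 FPKM in CCA1-ox shoots, below the WT shoots, with 3 of 5 called lower and 1 higher. The part of these marker changes in the WRKY values of shoots was not tested.

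WRKY46 (AT2G46400), a group III member of salicylic acid and drought responses, stood at 0.637, 0.474 and 0.368 FPKM in the WT shoots and 1.69, 1.22 and 1.61 FPKM in the CCA1-ox shoots, which rests on 31, 24 and 20 fragments against 83, 61 and 85. Its log2 difference was 0.75 ± 0.11 SE, a description because the filter required the high CCA1-ox shoot values. WRKY48 (AT5G49520), a repressor of basal resistance to Pseudomonas, stood at 0.420, 0.264 and 0.545 FPKM in the WT shoots and 1.43, 1.21 and 1.26 FPKM in the CCA1-ox shoots (log2 difference 0.71 ± 0.10 SE, adjusted p = 4.5e-05). WRKY49 stood at 1.74, 1.07 and 1.35 FPKM in the CCA1-ox shoots, and its log2 difference of 0.40 ± 0.094 SE is a description for the same reason and lost its call under quantile normalization. WRKY28 stood at 2.44, 2.20 and 2.39 FPKM, above its WT values (log2 difference 0.38 ± 0.090 SE, adjusted p = 0.00297), and was not called under quantile normalization.

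The 4 members that fell in shoots were WRKY47, WRKY29, WRKY42 and WRKY27. WRKY47 (AT4G01720) stood at 3.54, 5.28 and 4.60 FPKM in the WT shoots and 2.29, 3.15 and 3.04 FPKM in the CCA1-ox shoots. It was 1.58-fold lower, with the widest spread of the 4 (log2 difference -0.51 ± 0.12 SE, adjusted p = 0.00216). WRKY29 (AT4G23550, chromosome 4, 12291632 to 12293367), which was placed downstream of the flagellin MAP kinase cascade, stood at 5.05, 5.77 and 5.56 FPKM in the WT shoots and 3.60, 4.12 and 3.59 FPKM in the CCA1-ox shoots, without overlap (log2 difference -0.44 ± 0.062 SE, adjusted p = 4.36e-05). WRKY42 (AT4G04450, chromosome 4, 2218042 to 2221260), which represses the phosphate exporter gene PHO1 and activates the phosphate importer gene PHT1;1, stood at 0.474, 0.488 and 0.559 FPKM in the WT shoots and 0.183, 0.191 and 0.160 FPKM in the CCA1-ox shoots. It was 2.85-fold lower from a low base (log2 difference -0.35 ± 0.065 SE, adjusted p = 0.000415). WRKY27 (AT5G52830), known from susceptibility to bacterial wilt, stood at 1.23, 0.828 and 1.04 FPKM in the WT shoots and 0.818, 0.616 and 0.649 FPKM in the CCA1-ox shoots (log2 difference -0.26 ± 0.077 SE, adjusted p = 0.0112), and lost its call with a pseudocount of 5, with voom on recovered fragments and without WT shoot replicate 1.

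**Figure D3:**
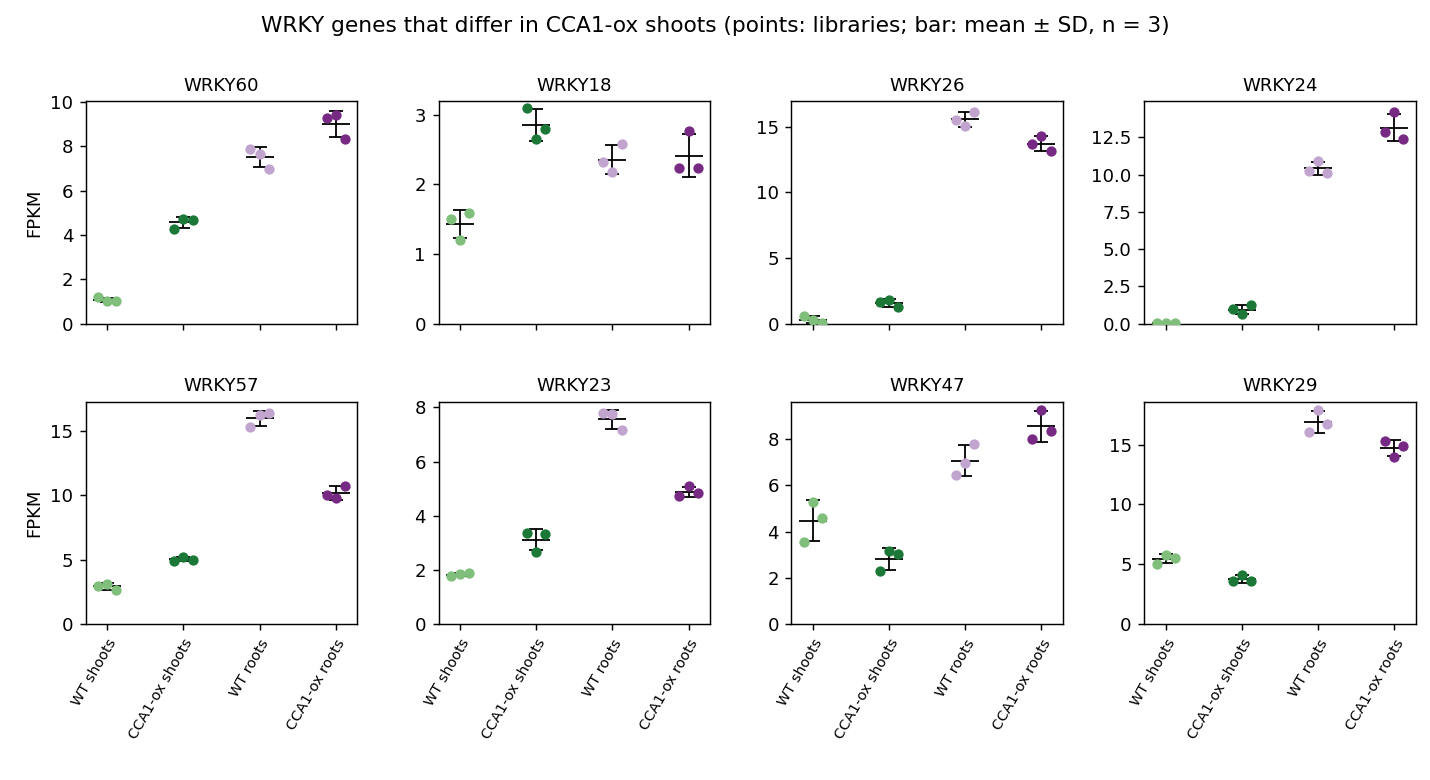
FPKM of 8 WRKY genes that differ between CCA1-ox and WT shoots, in each library (points) of the 4 groups, with the mean and SD over 3 libraries; each vertical axis starts at 0. WRKY60 rose from about 1.1 to 4.6 FPKM in shoots, WRKY47 and WRKY29 fell there, and WRKY57 and WRKY23 moved in opposite directions in shoots and roots.

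CCA1 binds the evening element AAAATATCT and the related CCA1-binding site, AAAAATCT or AACAATCT, and WRKY proteins bind the W box, so the stretch from 250 bases before to 30 bases after each annotated gene start was searched for these letters on both strands. The evening element was present in 2 of 67 members (2.99%) and in 2.48% of 32721 genes, and the CCA1-binding site in 4 members (5.97%) and in 8.97% of genes. The W box core TTGAC was present in 41 members (61.2%) and in 47.7% of genes. The longer forms TTGACC or TTGACT, which contain the core, were in 25 members (37.3%) and 30.3% of genes. A match of letters is a description of the window and not a bound site. The stretches below are read 5′ to 3′ in the direction of the gene from the TAIR10 sequence. They are those of both members with an evening element and of WRKY33. The others are the members with the largest rise on the log2(FPKM + 1) scale in shoots (WRKY60) and in roots (WRKY70). Capitals mark the evening element or CCA1-binding site in WRKY7 and WRKY29, and the W box core on either strand in the other 3.
WRKY7 (chr4:12571288-12571567, plus strand): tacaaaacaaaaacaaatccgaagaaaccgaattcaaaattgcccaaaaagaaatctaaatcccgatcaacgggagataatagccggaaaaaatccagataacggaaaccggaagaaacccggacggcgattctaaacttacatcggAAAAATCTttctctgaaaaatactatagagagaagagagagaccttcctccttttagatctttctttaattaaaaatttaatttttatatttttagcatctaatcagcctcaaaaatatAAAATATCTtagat
WRKY29 (chr4:12291382-12291661, plus strand): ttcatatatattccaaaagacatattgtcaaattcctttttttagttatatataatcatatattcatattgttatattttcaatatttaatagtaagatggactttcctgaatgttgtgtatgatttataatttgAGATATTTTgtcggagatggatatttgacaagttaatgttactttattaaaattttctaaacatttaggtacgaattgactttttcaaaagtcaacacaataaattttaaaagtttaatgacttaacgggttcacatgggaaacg
WRKY60 (chr2:10629412-10629691, plus strand): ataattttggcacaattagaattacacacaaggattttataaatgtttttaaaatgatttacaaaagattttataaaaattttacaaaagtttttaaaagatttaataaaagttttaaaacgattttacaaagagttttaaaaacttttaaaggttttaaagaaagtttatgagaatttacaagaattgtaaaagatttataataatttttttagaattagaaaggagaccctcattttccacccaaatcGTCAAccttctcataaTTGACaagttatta
WRKY70 (chr3:20910594-20910873, minus strand): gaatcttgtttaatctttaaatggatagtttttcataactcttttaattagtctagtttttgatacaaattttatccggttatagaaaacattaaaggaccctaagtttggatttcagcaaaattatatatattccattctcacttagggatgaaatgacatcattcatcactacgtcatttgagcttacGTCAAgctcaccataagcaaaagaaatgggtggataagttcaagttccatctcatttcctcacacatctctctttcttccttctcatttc
WRKY33 (chr2:16107985-16108264, plus strand): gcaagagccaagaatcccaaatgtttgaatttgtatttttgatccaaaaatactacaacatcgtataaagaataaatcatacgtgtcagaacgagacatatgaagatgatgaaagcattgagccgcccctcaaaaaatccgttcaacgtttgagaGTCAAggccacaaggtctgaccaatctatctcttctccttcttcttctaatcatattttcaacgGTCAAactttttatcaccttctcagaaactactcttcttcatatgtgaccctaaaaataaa
In WRKY7 the evening element begins 17 bases after the gene start and a CCA1-binding site 103 bases before it. In WRKY29 the evening element lies on the other strand, beginning 115 bases before the start, and 4 W box cores lie in the same window. WRKY7 and WRKY29 went in opposite directions in CCA1-ox shoots. WRKY7 (AT4G24240), a calmodulin-binding member, rose in shoots from 12.2 ± 0.617 to 18.3 ± 1.82 FPKM (SD, n = 3 each; log2 difference 0.54 ± 0.059 SE, adjusted p = 3.54e-06), whereas WRKY29 fell. The CCA1-binding site was also found in WRKY13, WRKY41 and WRKY45. WRKY13 and WRKY45 were not called in either organ, and WRKY41 did not pass the filter.

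In roots, 21 of the 54 members rose and 7 fell in CCA1-ox, against 20.8% and 15.4% of all tested genes. The members' median log2 difference was 0.14, against 0.016 for all tested genes. Only WRKY70 among the called members reached 2-fold on the log2(FPKM + 1) scale. WRKY58 and WRKY59, which are among the 21, passed the filter through the CCA1-ox roots alone. All 4 tested group III genes rose. In group I, 2 of 9 rose, WRKY58 among them, and 2 fell, and in group II 15 of 40 rose and 5 fell. Scaling to the summed fragments took the share of higher among all called genes from 57.4% to 38.8% and left 17 members higher and 7 lower.

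WRKY70 (AT3G56400, chromosome 3, 20908711 to 20910623), a group III factor that promotes salicylic acid and represses jasmonate responses, had the largest rise on the log2(FPKM + 1) scale. It stood at 15.9, 15.5 and 15.6 FPKM in the WT roots and 34.9, 35.5 and 35.2 FPKM in the CCA1-ox roots. The replicates were within 1 FPKM of each other in each group, and the level was 2.25-fold higher (log2 difference 1.12 ± 0.061 SE, adjusted p = 1.17e-08). It also rose in shoots, from 2.16, 2.16 and 1.68 FPKM to 3.82, 3.74 and 4.12 FPKM (log2 difference 0.71 ± 0.061 SE, adjusted p = 3.66e-07). WRKY54 (AT2G40750), its closest homologue, which acts with it in senescence, stood at 3.61, 4.02 and 4.09 FPKM in the WT roots and 6.84, 7.03 and 5.24 FPKM in the CCA1-ox roots. The groups did not overlap in roots (log2 difference 0.58 ± 0.12 SE, adjusted p = 0.00141), and WRKY54 rose in shoots too (log2 difference 0.45 ± 0.12 SE, adjusted p = 0.00481), where quantile normalization took the difference to 0.22 and ended the call. WRKY53 (AT4G23810), a promoter of leaf senescence, stood at 2.38, 2.19 and 2.49 FPKM in the WT roots and 4.03, 4.61 and 4.59 FPKM in the CCA1-ox roots, 1.87-fold higher (log2 difference 0.69 ± 0.090 SE, adjusted p = 4.78e-05). In shoots WRKY53 stood at 2.11, 1.80 and 2.27 FPKM in the WT shoots and 2.40, 1.86 and 1.73 FPKM in the CCA1-ox shoots, with overlapping groups. WRKY46 stood at 0.459, 0.741 and 0.396 FPKM in the WT roots and 1.26, 0.990 and 0.854 FPKM in the CCA1-ox roots. It rose in roots (log2 difference 0.41 ± 0.11 SE, adjusted p = 0.0113), but leaving out WT root replicate 3, or replicate 1 of the CCA1-ox roots, ended the root call. Of the 8 group III genes below the filter, WRKY41 and WRKY55 were also higher in roots when every gene with a value above 0 was tested, with log2 differences of 0.26 (adjusted p = 0.0202) and 0.21 (adjusted p = 0.0268). WRKY38 and WRKY62 had log2 differences of 0.28 and 0.18 in roots and were not called (adjusted p = 0.0524 and 0.0704). The rest of these 8 genes did not rise in roots. WRKY30, WRKY66 and WRKY67 had log2 differences of -0.00079, -0.018 and -0.011 and were not called, and WRKY64 had no fragments. The share of all 27571 genes called in this wider test was not counted.

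Group IIa was not uniform in roots. WRKY40 stood at 1.86, 1.82 and 1.59 FPKM in the WT roots and 3.82, 3.65 and 3.51 FPKM in the CCA1-ox roots, 2.08-fold higher without overlap (log2 difference 0.76 ± 0.10 SE, adjusted p = 4.41e-05). WRKY60 stood at 7.86, 7.65 and 6.99 FPKM in the WT roots and 9.28, 9.40 and 8.34 FPKM in the CCA1-ox roots (log2 difference 0.24 ± 0.065 SE, adjusted p = 0.0122), a smaller rise than in shoots, and leaving out WT root replicate 3, or replicate 2 of the CCA1-ox roots, ended its root call. WRKY18 stood at 2.31, 2.17 and 2.58 FPKM in the WT roots and 2.23, 2.77 and 2.24 FPKM in the CCA1-ox roots, and its groups overlapped (log2 difference 0.023 ± 0.086 SE, adjusted p = 0.881). Thus WRKY18 and WRKY60 rose in shoots, WRKY40 and WRKY60 in roots.

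Of 64 members the domain carries the usual WRKYGQK residues, and WRKY50, WRKY51 and WRKY59 carry the variant WRKYGKK. WRKY51 (AT5G64810), which with WRKY50 mediates repression of jasmonate signalling by salicylic acid, stood at 12.9, 13.2 and 13.1 FPKM in the WT roots and 20.2, 21.6 and 21.1 FPKM in the CCA1-ox roots, 1.60-fold higher (log2 difference 0.64 ± 0.093 SE, adjusted p = 0.000119), a call lost with a pseudocount of 0.1. WRKY59 (AT2G21900) passed the filter through the CCA1-ox roots alone. It stood at 0.0711, 0.219 and 0.143 FPKM in the WT roots and 1.24, 1.48 and 1.05 FPKM in the CCA1-ox roots, from 3, 11 and 7 fragments against 36, 46 and 43. Because the filter required the high CCA1-ox values, its log2 difference of 0.98 ± 0.084 SE is a description. WRKY50 stayed below the filter in all groups.

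WRKY33 stood at 36.8, 37.7 and 37.9 FPKM in the WT roots and 52.1, 52.5 and 53.5 FPKM in the CCA1-ox roots, 1.41-fold higher (log2 difference 0.48 ± 0.044 SE, adjusted p = 1.71e-06), and was among the 10 members that rose in both organs. WRKY11 and WRKY17 rose in roots (log2 difference 0.29 ± 0.032 SE, adjusted p = 1.06e-05, and 0.24 ± 0.060 SE, adjusted p = 0.00755). WRKY22 (AT4G01250), which was placed beside WRKY29 in flagellin signalling, rose in roots from 2.44 ± 0.246 to 3.36 ± 0.0606 FPKM (SD, n = 3 each; log2 difference 0.35 ± 0.075 SE, adjusted p = 0.00251). WRKY72 stood at 20.7, 19.5 and 20.8 FPKM in the WT roots and 28.1, 29.3 and 31.1 FPKM in the CCA1-ox roots (log2 difference 0.51 ± 0.072 SE, adjusted p = 8.83e-05), a call lost with a pseudocount of 0.1. WRKY36 rose from the WT values given above to 37.4, 38.5 and 37.7 FPKM (log2 difference 0.28 ± 0.064 SE, adjusted p = 0.00396), again with the call lost at a pseudocount of 0.1. WRKY58 (AT3G01080), which like WRKY59 passed through the CCA1-ox roots alone, stood at 0.814, 0.520 and 0.713 FPKM in the WT roots and 1.27, 1.28 and 1.16 FPKM in the CCA1-ox roots, and its log2 difference of 0.42 ± 0.078 SE is likewise a description. Among the 6 members listed for immune signalling and camalexin, which are WRKY22, WRKY29, WRKY25, WRKY33, WRKY11 and WRKY17, 4 rose and 1 fell in roots (20.8% and 15.4% of all tested genes), and 3 rose and 1 fell in shoots (26.6% and 28.9%).

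The members that fell in roots were WRKY42, WRKY57, WRKY23, WRKY3, WRKY32, WRKY21 and WRKY29. WRKY42 stood at 4.54, 4.56 and 5.06 FPKM in the WT roots and 2.21, 2.46 and 2.21 FPKM in the CCA1-ox roots. It was 2.06-fold lower, the deepest fall among the called members in roots (log2 difference -0.80 ± 0.065 SE, adjusted p = 6.5e-07). With WRKY29 it was one of the 2 members that fell in both organs. WRKY29 stood at 16.05, 17.9 and 16.7 FPKM in the WT roots and 15.3, 14.003 and 14.9 FPKM in the CCA1-ox roots, a small difference (log2 difference -0.19 ± 0.062 SE, adjusted p = 0.0326) whose call was lost with a pseudocount of 0.1 and without any 1 of 4 root libraries (WT replicates 2 and 3, CCA1-ox replicates 2 and 3). WRKY21 stood at 8.32, 9.82 and 9.25 FPKM in the WT roots and 7.95, 8.11 and 7.58 FPKM in the CCA1-ox roots (log2 difference -0.19 ± 0.054 SE, adjusted p = 0.0148), with the call lost without WT root replicate 2, without replicate 3 of the CCA1-ox roots, and in a fit of the root libraries alone. No tested group III gene fell. Green-tissue markers, which are low in roots, went from 17.8 to 20.1 FPKM in WT roots to 1.1 to 1.58 FPKM in CCA1-ox roots, with 3 of 5 called lower and 1 higher. The 5 xylem genes summed to 186 to 187 and 188 to 190 FPKM, with 1 of 5 called higher. Endodermis markers summed to 230.0 to 241 FPKM in WT roots and 332 to 351 FPKM in CCA1-ox roots, with 6 of 6 called higher, and root hair markers to 63.9 to 67.7 and 88.2 to 90.9 FPKM, with 4 of 5 called higher. Root cap markers summed to 8.47 to 9.36 FPKM in WT roots and 12.1 to 13.3 FPKM in CCA1-ox roots, with 2 of 3 called higher. The part of these changes in the WRKY values was not tested.

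**Figure D4:**
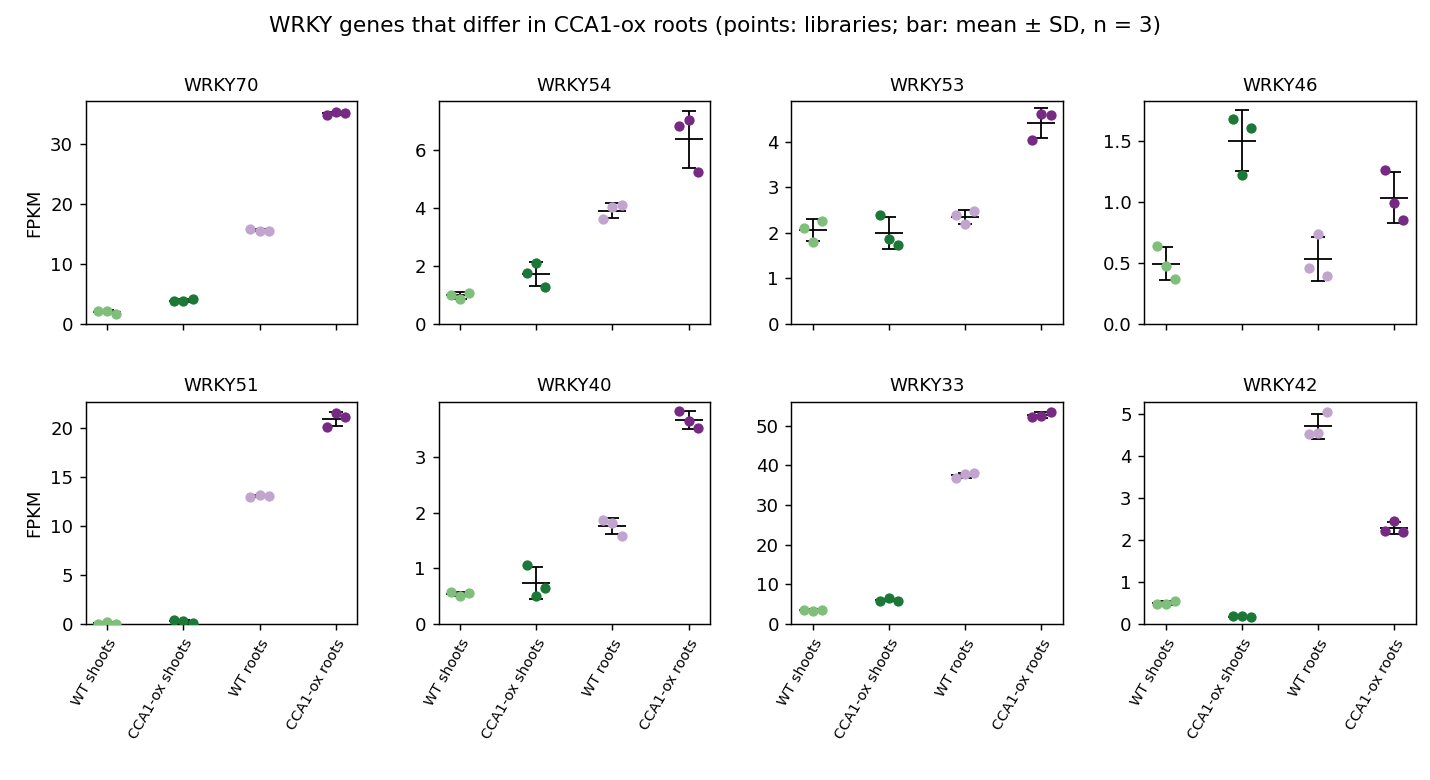
FPKM of 8 WRKY genes that differ between CCA1-ox and WT roots, in each library (points) of the 4 groups, with the mean and SD over 3 libraries; each vertical axis starts at 0. WRKY70 went from about 15.7 to 35.2 FPKM in roots, the other group III genes WRKY54, WRKY53 and WRKY46 rose there as well, and WRKY42 fell in both organs.

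The 4 members that act on phosphate supply were measured separately. WRKY6 (AT1G62300), a repressor of PHO1, stood at 3.07, 3.17 and 3.38 FPKM in the WT shoots and 4.41, 3.31 and 3.79 FPKM in the CCA1-ox shoots, with overlapping groups, and at 28.5, 28.9 and 28.6 FPKM in the WT roots and 35.5, 37.9 and 37.01 FPKM in the CCA1-ox roots, without overlap. It rose in roots (log2 difference 0.35 ± 0.067 SE, adjusted p = 0.00105) and was called in shoots at 0.20 ± 0.067 SE (adjusted p = 0.0233), where 5 alternatives removed the call. WRKY42 fell in both organs, as given above. WRKY75 stood at 0.0687, 0.0660 and 0.0615 FPKM in the WT shoots and 0.374, 0.401 and 0.285 FPKM in the CCA1-ox shoots and at 29.5, 29.9 and 27.1 FPKM in the WT roots and 33.2, 28.9 and 32.2 FPKM in the CCA1-ox roots. Its small shoot level rose (log2 difference 0.34 ± 0.063 SE, adjusted p = 0.000377), a call lost with a pseudocount of 5 (0.080, adjusted p = 0.143), and its root values overlapped (adjusted p = 0.161). WRKY45 (AT3G01970), an activator of PHT1;1, stood at 0.143, 0.393 and 0.238 FPKM in the WT shoots and 0.567, 0.518 and 0.170 FPKM in the CCA1-ox shoots. In roots it stood at 19.1, 20.6 and 20.1 FPKM in the WT roots and 24.1, 22.4 and 20.2 FPKM in the CCA1-ox roots, and neither organ gave a call (adjusted p = 0.215 and 0.325). PHO1 stood at 6.89 ± 0.195 and 25.8 ± 0.382 FPKM in WT and CCA1-ox shoots (log2 difference 1.77 ± 0.029 SE, adjusted p = 1.51e-14), and at 186 ± 1.56 and 172 ± 4.83 FPKM in the roots (log2 difference -0.11 ± 0.029 SE, adjusted p = 0.00694). PHT1;1 rose in roots from 169 ± 2.64 to 216 ± 6.96 FPKM (log2 difference 0.35 ± 0.046 SE, adjusted p = 4.8e-05) and in shoots stood at 0.305 ± 0.0762 and 0.0936 ± 0.0258 FPKM.

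Whether CCA1 overexpression acted differently on a member in shoots and roots was tested with an interaction term, the effect in roots less that in shoots. Of the 54 members, 14 had a higher effect in roots and 21 a lower one, where 27.2% and 23.5% of all tested genes did, and the medians were -0.15 for members and 0.037 for all tested genes. A higher or lower effect means the sign of this difference and not the size of a change. Counted over both organs, 10 members rose in both, 2 fell in both, 4 rose in shoots and fell in roots, none did the reverse, and 11 were called in neither. Scaling to the summed fragments shifts this contrast by -0.15 over all genes, takes the share of higher among all called genes from 53.6% to 29% and leaves 9 members higher and 23 lower. For members close to 0 in shoots the sign also depends on the pseudocount, as given for WRKY42, WRKY51 and WRKY72 under the processing alternatives.

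WRKY57, WRKY23, WRKY3 and WRKY32 were the members with opposite changes. WRKY57 (AT1G69310, chromosome 1, 26054275 to 26058383), a factor in drought tolerance and in restraining jasmonate-induced senescence, stood at 2.98, 3.12 and 2.64 FPKM in the WT shoots and 4.91, 5.18 and 4.97 FPKM in the CCA1-ox shoots. In roots it stood at 15.3, 16.2 and 16.4 FPKM in the WT roots and 9.995, 9.74 and 10.7 FPKM in the CCA1-ox roots. It rose 1.72-fold in shoots and was 1.57-fold lower in roots, without overlap in either (log2 difference 0.62 ± 0.057 SE, adjusted p = 7.11e-07 in shoots, and -0.60 ± 0.057 SE, adjusted p = 2.44e-06 in roots). Its interaction term was -1.23 ± 0.081 SE, adjusted p = 4e-08, the most negative of the family.

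WRKY23 (AT2G47260, chromosome 2, 19404802 to 19407098), an auxin-responsive regulator of root development, stood at 1.76, 1.83 and 1.87 FPKM in the WT shoots and 3.36, 2.67 and 3.31 FPKM in the CCA1-ox shoots. In roots it stood at 7.78, 7.74 and 7.16 FPKM in the WT roots and 4.73, 5.09 and 4.84 FPKM in the CCA1-ox roots. The shoot difference was 0.54 ± 0.069 SE, adjusted p = 1.82e-05, the root difference -0.54 ± 0.069 SE, adjusted p = 4.04e-05, and the difference between organs -1.08 ± 0.10 SE, adjusted p = 9.75e-07. WRKY3 stood at 16.9, 16.7 and 17.7 FPKM in the WT shoots and 19.9, 20.2 and 19.8 FPKM in the CCA1-ox shoots, and at 12.3, 13.3 and 11.6 FPKM in the WT roots and 9.02, 10.4 and 9.47 FPKM in the CCA1-ox roots. WRKY32 (AT4G30935) stood at 9.11, 8.60 and 8.73 FPKM in the WT shoots and 10.1, 10.5 and 10.7 FPKM in the CCA1-ox shoots, and at 12.7, 12.1 and 11.4 FPKM in the WT roots and 9.57, 10.5 and 10.4 FPKM in the CCA1-ox roots. These 2 abundant group I genes changed little in either organ, by log2 differences of 0.21 and 0.22 in shoots and -0.33 and -0.23 in roots, and all 4 changes were called (adjusted p = 0.00426, 0.00174, 0.000302 and 0.00243). Their differences between organs were -0.55 ± 0.077 SE, adjusted p = 5.35e-05, and -0.46 ± 0.070 SE, adjusted p = 0.000124. For all 4 genes both calls and their directions held under every alternative tried.

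Other members differed in size of effect between the organs. WRKY26 stood at 15.5, 15.04 and 16.1 FPKM in the WT roots and 13.7, 14.3 and 13.2 FPKM in the CCA1-ox roots and was not called in roots (adjusted p = 0.284), and its interaction term was -1.16 ± 0.16 SE, adjusted p = 5.33e-05. WRKY48 stood at 3.10, 3.33 and 2.48 FPKM in the WT roots and 2.36, 2.92 and 2.90 FPKM in the CCA1-ox roots, with overlapping groups, and the difference between organs was -0.80 ± 0.14 SE, adjusted p = 0.00041. WRKY65 stood at 74.7, 77.8 and 76.4 FPKM in the WT roots and 83.3, 78.3 and 76.8 FPKM in the CCA1-ox roots, also overlapping, with a difference between organs of -0.77 ± 0.11 SE, adjusted p = 9.03e-05. For WRKY60, which rose in both organs, the difference between organs was -1.18 ± 0.092 SE, adjusted p = 2.28e-07. The most positive value, 0.94, was that of WRKY59, which like WRKY58 was tested only because its CCA1-ox root values passed the filter, so both values are descriptions. WRKY59 lost its call with voom. Next were WRKY47 (0.75 ± 0.17 SE, adjusted p = 0.00191) and WRKY53 (0.72 ± 0.13 SE, adjusted p = 0.000364). WRKY47 stood at 6.46, 6.97 and 7.78 FPKM in the WT roots and 7.997, 9.27 and 8.37 FPKM in the CCA1-ox roots and was not called in roots (adjusted p = 0.127). WRKY40, WRKY58 and WRKY51 followed, at 0.60 (adjusted p = 0.0027), 0.47 and 0.43 (adjusted p = 0.0151), and the calls of WRKY40 and WRKY51 were lost with a pseudocount of 0.1 and with voom.

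**Figure D5:**
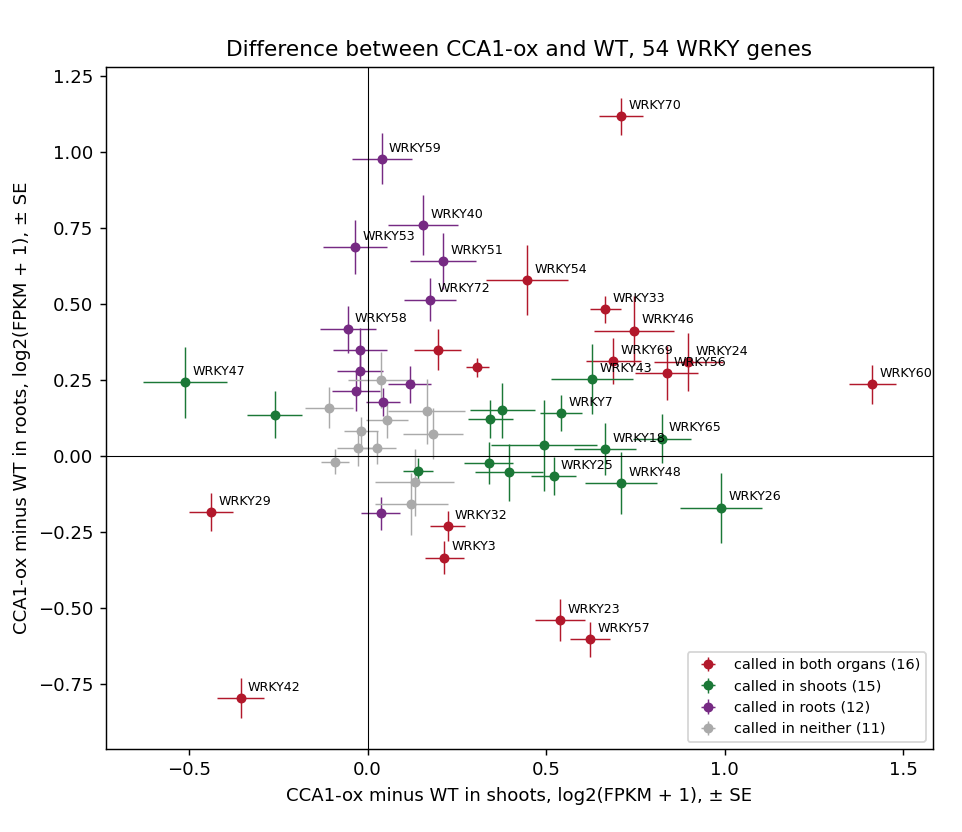
Difference between CCA1-ox and WT in shoots (horizontal axis) and in roots (vertical axis) for the 54 tested WRKY genes, on the log2(FPKM + 1) scale with SE bars, coloured by the organs in which the gene was called. WRKY60 lies farthest right, WRKY70 highest, WRKY42 lowest, and WRKY57 and WRKY23 lie to the lower right, higher in shoots and lower in roots.

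The other role lists are read against the 26.6% and 28.9% of all tested genes that rose and fell in shoots and the 20.8% and 15.4% in roots. Of 9 members related to salicylic acid and NPR1, 6 were tested. Of these, 4 rose in shoots and 5 in roots, and none fell, with median log2 differences of 0.41 and 0.61. The shoot rises include WRKY46 and the root rises WRKY59, whose values there are descriptions because the filter required them. Of 8 tested senescence members, 5 rose in shoots with none falling, and in roots 5 rose and 1, WRKY57, fell. Of 9 tested members of abscisic acid, drought and heat responses, 6 rose in shoots, again with WRKY46 among them, and 3 in roots, with none and 1 falling. Of 6 tested developmental members, 4 rose in shoots, and in roots none rose and 1, WRKY23, fell. WRKY63 of the abscisic acid list and WRKY44 of the developmental list were deposited as ABO3 and TTG2 and are not in these counts. ABO3 was called higher in roots, and TTG2 was called in neither organ. The lists share genes, and all were drawn up with earlier results of these data known.

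The remaining members are given more briefly, and some of them were named above. WRKY69 (AT3G58710) rose in both organs, from 2.50 ± 0.381 to 4.62 ± 0.354 FPKM in shoots and from 21.7 ± 1.70 to 27.1 ± 0.794 FPKM in roots (adjusted p = 4.95e-06 and 0.00613). WRKY2, WRKY4 and WRKY74 rose in shoots, by log2 differences of 0.34, 0.14 and 0.49 (adjusted p = 0.000827, 0.0109 and 0.0126), of which the last 2 lost their calls under quantile normalization and in a fit of the shoots alone. WRKY61 rose in roots (log2 difference 0.21 ± 0.067 SE, adjusted p = 0.0238), a call that 8 alternatives removed. WRKY8, WRKY14, WRKY19, WRKY35 and WRKY71 were called in neither organ, with WRKY14 and WRKY35 at 20.3 and 8.17 FPKM in WT roots. The root difference of WRKY35 (0.25, adjusted p = 0.0504) was called higher in 9 alternatives. WRKY14 was called higher in roots in 4 alternatives and lower in shoots in 2, and WRKY8 higher in shoots in 1. The 13 members below the filter were WRKY10, WRKY12, WRKY30, WRKY34, WRKY38, WRKY41, WRKY50, WRKY55, WRKY62, WRKY64, WRKY66, WRKY67 and WRKY68. None exceeded 0.573 FPKM in any library, and WRKY34, WRKY64 and WRKY68 were listed at 0 in all 12. With every gene above 0 tested, WRKY30 and WRKY12 were higher in CCA1-ox shoots, by 0.29 (adjusted p = 0.00795) and 0.18 (adjusted p = 0.0485).

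Genes that act around WRKY factors were read from a list of 31, of which 27 passed the filter. In shoots 7 rose and 6 fell, near the 26.6% and 28.9% of all tested genes, and in roots 12 rose and 2 fell, where 20.8% and 15.4% of all genes did. SIB1, a VQ protein that binds WRKY33, reached 1 FPKM in CCA1-ox libraries only. It stood at 0.847 ± 0.137 and 2.60 ± 0.287 FPKM in WT and CCA1-ox shoots (log2 difference 0.96 ± 0.094 SE). In roots it stood at 0.551 ± 0.171 and 1.19 ± 0.0692 FPKM (log2 difference 0.50 ± 0.094 SE). Both differences are descriptions, because SIB1 passed the filter through its CCA1-ox libraries alone, although those of either organ were enough. The counts above include SIB1 among the rises of both organs and SARD1 among those of shoots. SARD1 and CBP60G are related activators of salicylic acid synthesis. SARD1 stood at 0.331 ± 0.102 and 1.53 ± 0.148 FPKM in WT and CCA1-ox shoots, and its log2 difference of 0.93 ± 0.10 SE is a description, since it passed the filter through the CCA1-ox shoots alone. CBP60G rose in roots from 16.3 ± 0.359 to 25.1 ± 0.246 FPKM (log2 difference 0.59 ± 0.080 SE, adjusted p = 6.26e-05) and fell in shoots (log2 difference -0.32 ± 0.080 SE, adjusted p = 0.00367). Within the MAP kinase cascade, MPK3 rose in shoots from 25.5 ± 1.38 to 35.6 ± 0.125 FPKM and MKK2 in roots from 21.5 ± 0.458 to 28.5 ± 0.832 FPKM (adjusted p = 3.51e-07 and 2.62e-06). Over the 8 kinases of that cascade, 1 rose and 2 fell in shoots, no more than the shares of all genes just given, and 5 rose and none fell in roots.

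Of 4 receptor genes, 1 rose and 1 fell in shoots, and 2 rose and none fell in roots. Of 6 tested genes reported as targets of WRKY factors, 2 rose and 2 fell in each organ. Among all tested genes, 26.6% rose and 28.9% fell in shoots, and 20.8% and 15.4% in roots. FLS2, the flagellin receptor gene, rose in shoots from 3.09 ± 0.144 to 5.79 ± 0.272 FPKM (log2 difference 0.73 ± 0.064 SE, adjusted p = 4.46e-07) and stood at 0.0392 FPKM in WT roots. CYP71A13, a camalexin synthesis gene, rose in roots from 1.21 ± 0.318 to 2.83 ± 0.213 FPKM (log2 difference 0.80 ± 0.10 SE, adjusted p = 4.23e-05). GL2, an epidermal patterning gene downstream of the WRKY factor TTG2, fell in shoots from 4.87 ± 0.298 to 3.17 ± 0.270 FPKM (log2 difference -0.49 ± 0.069 SE, adjusted p = 3.72e-05). ABI5, an abscisic acid response gene repressed by group IIa, fell in roots from 1.85 ± 0.175 to 1.07 ± 0.0538 FPKM (log2 difference -0.46 ± 0.075 SE, adjusted p = 0.000286). The defence markers PR1 and FRK1, and JAZ8 and ABI4, did not pass the filter.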

How the data were processed

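The data are RNA sequencing of total RNA, made into libraries with a stranded kit per the labels' protocols. The authors deposited 1 table of FPKM for 33010 genes, and the submitters' processing notes name the build as TAIR10. No source used here names the aligner, the counting tool or its strand setting. Multiplied by gene length, 100% of the nonzero FPKM values below an upper limit were whole multiples of 1 step within 0.1. Larger values were not checked in this way. All values were rounded to whole steps to give the fragments behind them. The library size used by the authors was 0.906 to 1.15 times the sum of these fragments by group. No 2 libraries were identical, and the median chi-square of the 12 replicate pairs was 1.04 to 1.28 against 0.455 for sampling noise.

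Genes at 1 FPKM or more in at least 3 libraries were tested (20975). A linear model of the 4 group means on log2(FPKM + 1) was fitted to all 12 libraries in limma 3.58.1 (R 4.3.3) with a mean-variance trend, two-sided, with Benjamini-Hochberg adjustment over all genes tested. The fit was first run on simulated data with a set spread and no difference between WT organs. That run checks the code and says nothing about the spread of these libraries. Members, gene lists and markers were chosen with earlier results of these data known. Values in every library are given, by rule, for up to 6 called members at each end of each of the 4 contrasts, the 5 most abundant members, and the group IIa and phosphate lists, and signalling genes are named when called and among the 6 with the largest change of an organ. WRKY33 and WRKY43 are given in every library beyond the rule and were chosen after their values were seen. Coding sequences and gene starts were read from RefSeq (TAIR10.1), where all 67 members have the positions of the deposited table, with Python 3.11.15. Alternatives were pseudocounts of 0.1 and 5, no filter or one at 5 FPKM, scaling to summed fragments, quantile normalization, voom on recovered fragments, fits of single contrasts, a replicate block, and leaving out each library.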

Additional observations from a re-analysis of the deposited data

Results flagged for a closer look

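The effect of CCA1 overexpression differed between organs for 35 of the 54 members by the interaction term of the limma fit (adjusted p under 0.05), which is the reason these members are listed. For 14 members the root effect was higher than the shoot effect and for 21 it was lower, where 27.2% and 23.5% of all tested genes were, so the share of members with a higher effect is near that of all genes. Values are the effect in roots less that in shoots on the log2(FPKM + 1) scale, and their causes were not tested.

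The members with the most negative values were WRKY57 (-1.23), WRKY60 (-1.18), WRKY26 (-1.16), WRKY23 (-1.08), WRKY48 (-0.80) and WRKY65 (-0.77). WRKY18 stood at -0.64, with a rise called in shoots alone. WRKY24 and WRKY56 stood at -0.59 and -0.57, and with a pseudocount of 5 both were close to 0 (-0.0043 and -0.021) and not called. WRKY25 stood at -0.59. WRKY3 and WRKY32 stood at -0.55 and -0.46 and moved in opposite directions in the organs. WRKY49 stood at -0.45, a description because it passed the filter through the CCA1-ox shoots alone. WRKY42 stood at -0.44, WRKY7 at -0.40, WRKY69 at -0.38, WRKY2 at -0.36, WRKY21 at -0.22, WRKY75 at -0.22, WRKY4 at -0.19 and WRKY33 at -0.18.

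The most positive values were those of WRKY59 (0.94), WRKY47 (0.75), WRKY53 (0.72), WRKY40 (0.60), WRKY58 (0.47) and WRKY51 (0.43). WRKY59 and WRKY58 passed the filter through the CCA1-ox roots alone. WRKY70 rose in both organs and stood at 0.41, which was 0.23 with a pseudocount of 0.1 (adjusted p = 0.135) and 0.19 with voom (adjusted p = 0.301). WRKY27, which fell in shoots, stood at 0.40. WRKY29, which fell in both organs, stood at 0.25, and at 0.097 under scaling to the summed fragments (adjusted p = 0.383). WRKY22 stood at 0.37, WRKY72 at 0.34, WRKY36 at 0.30, WRKY14 at 0.27 and WRKY61 at 0.25.

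Of these 35 calls, 19 were lost under 1 or more of the alternatives. WRKY61 lost its call in 15, WRKY75 in 13, WRKY14 and WRKY29 in 10 each, WRKY33 in 7, WRKY21 in 4 and WRKY36 in 3. WRKY40, WRKY42, WRKY49, WRKY51, WRKY56, WRKY70 and WRKY72 lost theirs in 2 each, and WRKY2, WRKY22, WRKY24, WRKY59 and WRKY69 in 1 each.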

How the results depend on the processing

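Under every alternative, 23 of 31 shoot calls, 17 of 28 root calls, 45 of 51 organ calls and 16 of 35 interaction calls of members held; no shoot or root difference of a tested member that was called turned its sign. Quantile normalization gave 7 members lower in shoots (4 as reported). The count of members with a higher interaction, 14 as reported, was 8 with a pseudocount of 0.1, 9 with a filter at 5 FPKM, 9 with scaling to summed fragments and 6 with voom. Members lower in WT roots, 7 as reported, numbered 3 with the filter at 5 FPKM and 3 with scaling to summed fragments. The interaction turned its sign for WRKY33 (0.055) and WRKY75 (0.027) with a pseudocount of 5, and with a pseudocount of 0.1 and with voom for WRKY42 (0.12 and 0.44), WRKY51 (-0.35 and -1.48) and WRKY72 (-0.39 and -1.54), all not called. The organ difference turned with scaling to summed fragments for WRKY2 (0.18, adjusted p = 0.025) and WRKY22 (0.036, adjusted p = 0.651). With quantile normalization it turned for WRKY46 (-0.44, adjusted p = 0.00248). WRKY2 and WRKY46, not called as reported, were thus called in the turned direction. The cause was not tested. Leaving out each library gave 25 to 29 members higher and 3 to 6 lower in shoots, 16 to 23 and 5 to 7 in roots, 11 to 13 and 19 to 21 for the interaction, and 43 to 44 and 6 to 7 between WT organs. Same-numbered libraries did not deviate together over all tested genes (r -0.0445 to 0.0298). These values cannot show whether such libraries came from the same plants or harvest, and the main fit used no pairing. With the replicate number as a block, 27 members were higher and 4 lower in shoots, and 23 and 7 in roots. The block gave 13 and 22 for the interaction, and 44 and 7 between WT organs. Members under 1 FPKM rest on few fragments, and their folds are uncertain by counting alone.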

Other observations

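Family members that the table lists under other names were read beside the 67. ABO3 (AT1G66600), also known as WRKY63 and as a factor in abscisic acid and drought responses, belongs to group III in the usual classification. It stood at 1.85, 1.89 and 1.83 FPKM in the WT roots and 5.03, 3.33 and 3.87 FPKM in the CCA1-ox roots, and at 0.0545, 0 and 0.0488 FPKM in the WT shoots and 0.0809, 0.0265 and 0.126 FPKM in the CCA1-ox shoots. In roots it was 2.19-fold higher without overlap (log2 difference 0.82 ± 0.10 SE, adjusted p = 2.91e-05), and in shoots it was not called (adjusted p = 0.662). RRS1 (AT5G45260), a resistance protein with a WRKY domain, rose slightly in shoots from 4.93 ± 0.181 to 5.59 ± 0.141 FPKM (log2 difference 0.15 ± 0.051 SE, adjusted p = 0.0229). ZAP1, known as WRKY1, TTG2, known as WRKY44 and for trichome and seed coat development, and TTR1, known as WRKY16, were called in neither organ, with mean levels in WT roots of 21.9, 1.76 and 7.82 FPKM. Adjusted p-values are from the same limma fit. These 5 genes were chosen after earlier results of the data were known.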
